A study of Mus musculus with 10 samples.

Results

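The ketone body enzymes Bdh1, Oxct1 and Acat1 were taken by gene symbol from the expression tables of mouse hearts labelled control or Prdm16 knockout, 3 genes of 46786 at 3 months and of 46977 at 12 months. All 3 were present once in each table, and all 3 passed the minimum for testing, a mean of at least 1 FPKM (sequenced fragments per unit of transcript length, scaled to library size) over the libraries of an age. RNA from dissected hearts was sequenced in 10 libraries. The design compares the 2 genotypes within each age and then the genotype differences between the ages.

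The 3-month groups were 3 control and 3 Prdm16 knockout libraries, strand-specific and made from poly(A) RNA. The 12-month groups were 2 control and 2 Prdm16 knockout libraries, made at the Genome Institute of Singapore, so that age and library preparation cannot be told apart. Prdm16 encodes a zinc-finger transcriptional regulator. The labels name neither the allele nor, if there was one, the Cre line, nor the sex or strain of either genotype, and they do not say whether a library came from 1 heart or several.

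Ketone bodies are small fuels that the liver makes from fatty acids and exports in the blood, and the heart is among the organs that burn them. In heart mitochondria 3-hydroxybutyrate is oxidised to acetoacetate by BDH1, the dehydrogenase encoded by Bdh1. OXCT1, also called SCOT, then moves coenzyme A from succinyl-CoA onto acetoacetate, and ACAT1, the mitochondrial acetoacetyl-CoA thiolase, splits the product into acetyl-CoA for the citric acid cycle. ACAT1 also carries out the last thiolase step of isoleucine breakdown, so its gene is not particular to ketone bodies.

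On GRCm38, Bdh1 (ENSMUSG00000046598) is a protein-coding gene on the plus strand at chr16:31422280-31458901 with 7 annotated transcripts. Oxct1 (ENSMUSG00000022186) lies on the plus strand at chr15:4026383-4155344 with 5, and Acat1 (ENSMUSG00000032047) on the minus strand at chr9:53580522-53610382 with 3. Bdh1 shares exon bases with Gm15743, an antisense gene at chr16:31427876-31429776, and 11.85% of the distinct 50-base words of its coding transcripts also occur there when both strands are read. Oxct1 shares 11.88% of its words in the same way with BC037032, at chr15:4020114-4027405, and Acat1 shares none with any other gene. The labels state strand-specific libraries at 3 months and say nothing of strand at 12 months, so reads of these overlapping pairs may not have been separated there.

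Bdh1 is the member whose values differed most, and RefSeq gives it 2 start sites on GRCm38.p6. The 250 bases before each start are shown because gene-level values add up transcripts from both and cannot say which start was used. Both are on the plus strand, 5′ to 3′:
Bdh1 upstream window of the first start, chr16:31422047-31422296: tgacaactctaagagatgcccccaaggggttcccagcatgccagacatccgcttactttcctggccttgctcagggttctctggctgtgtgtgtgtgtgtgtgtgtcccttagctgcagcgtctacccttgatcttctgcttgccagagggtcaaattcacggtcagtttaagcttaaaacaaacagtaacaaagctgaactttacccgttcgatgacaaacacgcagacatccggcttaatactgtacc
Bdh1 upstream window of the second start, chr16:31428503-31428752: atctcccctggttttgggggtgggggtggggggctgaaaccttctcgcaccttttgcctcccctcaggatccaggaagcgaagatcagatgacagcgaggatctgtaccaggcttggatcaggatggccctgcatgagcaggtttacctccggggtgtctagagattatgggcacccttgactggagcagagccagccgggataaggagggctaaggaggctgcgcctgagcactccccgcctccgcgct
The window of the first start holds 7 CpG pairs at 49.6% G and C, and that of the second holds 9 at 60.8%, against a median of 52.4% G and C over 32851 such mouse windows. The second window lies inside the span of Gm15743. A search of both strands for AGGTCA (a nuclear receptor half-site, found in 14% of all windows), GGGCGG (32.7%), CCAAT (33.8%) and TATAAA (12.4%) found no match in either window, so the letters carry no capitals. This says only that those letters are not in these windows. For Oxct1 the RefSeq table held 1 start, and Acat1 had no entry.

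Some properties of the whole series bear on the members' values. Prdm16 itself stood at 1.44, 2.23 and 1.61 FPKM in the 3-month controls and at 1.43, 0.760 and 2.03 in the knockout libraries, which overlap, and at 6.31 and 5.05 against 4.02 and 3.58 FPKM at 12 months. Its log2 difference was -0.22 at 3 months (limma, Benjamini-Hochberg adjusted p = 0.602) and -0.47 at 12 months (adjusted p = 0.34), and gene-level values may include reads from exons that a deletion leaves in place. At 12 months all 5 sex-linked genes examined were called, with Xist at 31.0 FPKM or more in both controls and at 0.0911 or less in both knockout libraries. The 4 called higher in knockout included Ddx3y of the Y chromosome, at 0.03523 FPKM or less in both controls and 20.7 or more in both knockout libraries. Every 3-month library held Ddx3y at 16.46 FPKM or more and Xist at 0.49 or less. The 12-month controls, lowest in Bdh1, were thus the only libraries with high Xist and almost no Ddx3y. By these genes the 12-month controls read as female and every other library as male, though the labels name no sex. Genotype and sex so read cannot be told apart at 12 months, and their part in the Bdh1 values was not tested. The 2 controls of 12 months differed from each other by little more than sampling noise (median chi-square 1.15 times that of sampling, with 6.9% of 1698 genes beyond the 95% limit), whereas the 2 knockout libraries differed by 5.67 times (42.7% beyond). The small SD of the controls may thus be technical, and the 12-month result of each member is also given with the controls averaged as 1 library. Knockout replicate 2 of 3 months stood apart from the others of its group, with a robust SD of log2 ratios of 0.285 and 0.319 against 0.128 between replicates 1 and 3. Nothing in the labels says which libraries come from separate animals, so the p-values measure only the spread between libraries.

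The tissue label was checked on cardiomyocyte genes. All 12 cardiomyocyte markers were present and 0 of 12 were called at either age, with summed levels of 33243 to 41407 FPKM in controls and 42338 to 44110 in knockout libraries at 3 months, and of 71617 to 71632 against 75336 to 77269 at 12 months. Ryr2 was listed at 0 in control replicate 2 of 3 months and at 20.7 FPKM or more in the other libraries, and an exact 0 of this kind can be a failed estimate.

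Oxct1 was the most abundant of the 3 transcripts, Acat1 came second and Bdh1 last, and this order held in all 10 libraries. FPKM is scaled by length, so levels may be set side by side between genes. Within the libraries of 3 months Oxct1 ranked between 235 and 383 among all genes by FPKM, Acat1 between 381 and 478, and Bdh1 between 2333 and 4201. At 12 months Oxct1 ranked between 98 and 164 and Acat1 between 231 and 285. Bdh1 ranked 10913 and 10839 in the 12-month controls and 2088 and 769 in the knockout libraries.

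**Figure D1:**
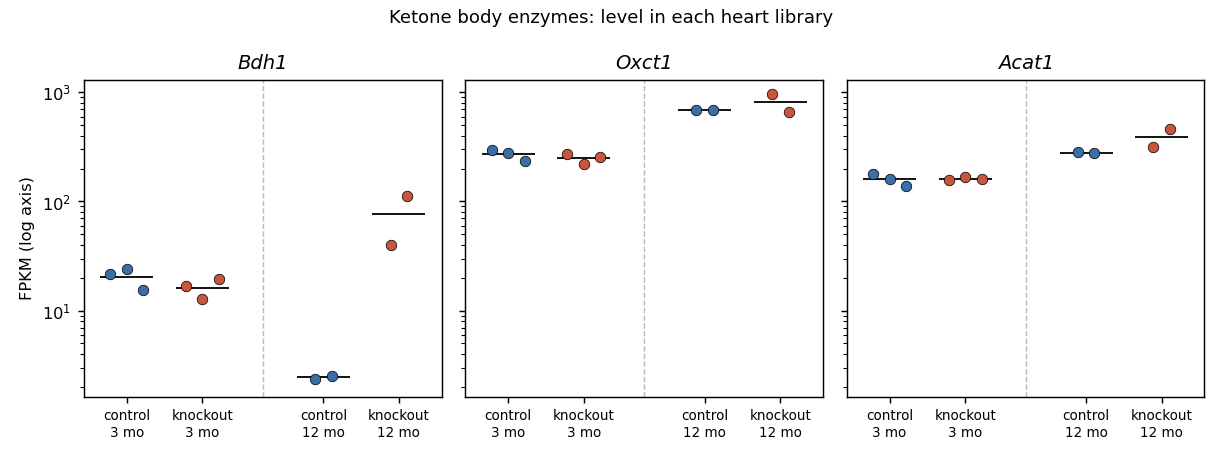
FPKM of Bdh1, Oxct1 and Acat1 in each library on a log axis, by genotype and age, with 1 point per library and a line at the group mean. The points of the genotypes overlap for all 3 genes at 3 months, and at 12 months Bdh1 was at 2.39 and 2.49 FPKM in controls and at 40.2 and 112 FPKM in knockout libraries.

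At 3 months Bdh1, which interconverts 3-hydroxybutyrate and acetoacetate, stood at 21.6, 24.0 and 15.4 FPKM in the control libraries and at 16.7, 12.7 and 19.3 FPKM in the knockout libraries. The lowest control lay below 2 of the knockout libraries, so the groups overlapped, at 20.4 ± 4.42 against 16.2 ± 3.32 FPKM (SD, n = 3 each). Knockout minus control was -0.31 on the log2(FPKM + 1) scale (SE 0.20, 95% interval -0.75 to 0.14; limma, Benjamini-Hochberg adjusted p = 0.436). A two-sided exact permutation test gave p = 0.3, where 3 libraries against 3 allow no p under 0.1.

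Oxct1, which catalyses the step that commits acetoacetate to use as fuel, was at 297, 281 and 236 FPKM in controls and at 269, 220 and 253 FPKM in knockout libraries of 3 months. Again the groups overlapped (271 ± 31.5 against 248 ± 25.0 FPKM). The log2 difference was -0.13 (SE 0.15, 95% interval -0.46 to 0.20; limma, Benjamini-Hochberg adjusted p = 0.668; exact permutation p = 0.4).

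Acat1, the thiolase, was at 178, 162 and 139 FPKM in controls and at 157, 168 and 161 FPKM in knockout libraries. All 3 knockout values fell within the range of the controls (159.5 ± 19.5 against 162 ± 5.53 FPKM). The log2 difference was 0.03 (SE 0.13, 95% interval -0.27 to 0.33; limma, Benjamini-Hochberg adjusted p = 0.929; exact permutation p = 0.9), and its sign turned under 3 other scalings, at -0.07, -0.08 and -0.16.

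Thus 0 of the 3 members passed at 3 months, where 0.746% of the 12200 genes tested were called and 24.7% had groups that did not overlap. Their median log2 difference was -0.13, and that of all genes tested was 0.09. The intervals still allow a Bdh1 level lower by 0.75 or higher by 0.14 on the log2 scale, and misses of the threshold do not show equal levels.

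At 12 months the Bdh1 levels of the 2 genotypes lay far apart. The 2 controls held 2.39 and 2.49 FPKM of Bdh1, and the knockout libraries 40.2 and 112 FPKM. Both knockout libraries lay far above both controls (2.44 ± 0.0740 against 76.1 ± 50.7 FPKM, SD, n = 2 each), at 16.1 times from the lowest knockout to the highest control and 46.9 times from the highest to the lowest, and 31.2 times between the means. The knockout libraries also differed from each other. Depth recovered from the low values puts Bdh1 at about 42 to 206 reads in control replicate 1 and 46 to 226 in replicate 2, depending on the transcript, so the controls are low but measured. The knockout libraries correspond to about 631 to 3078 and 1439 to 7113 reads.

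The fitted log2 difference of Bdh1 at 12 months was 4.31 (SE 0.52, 95% interval 2.89 to 5.73), the 7th largest of 13179 genes tested. Its unadjusted p was 0.000972, the 115th lowest, and its Benjamini-Hochberg adjusted p in limma was 0.11, so Bdh1 was not called at this age. Averaging the controls as 1 library gave 4.31, again not called. Leaving out 1 knockout library gave 3.58 or 5.04, in fits whose spread comes from the near-identical controls alone. Other pseudocounts, filters and scalings and a fit without trend gave limma adjusted p values of 0.0888 to 0.202, and a replicate block gave 0.049. An exact permutation test gave p = 0.33, the smallest that 2 libraries against 2 allow.

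Oxct1 at 12 months was at 690 and 687 FPKM in controls and at 962 and 656 FPKM in knockout libraries. One knockout library lay above and the other below both controls (688 ± 2.74 against 809 ± 217 FPKM, SD, n = 2 each). The log2 difference was 0.21 (SE 0.22, 95% interval -0.40 to 0.81; limma, Benjamini-Hochberg adjusted p = 0.689; exact permutation p = 1.0), and 1 knockout library sets its sign. Without knockout replicate 1 it was -0.07, without knockout replicate 2 it was 0.48 (adjusted p = 0.0315), and rescaling to TPM (a fixed total per library) gave -0.12. Averaging the controls as 1 library gave 0.21 (adjusted p = 1.0).

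Acat1 at 12 months was at 283 and 275 FPKM in controls and at 319 and 459 FPKM in knockout libraries. Both knockout libraries were higher (279 ± 5.63 against 389 ± 99.3 FPKM, SD, n = 2 each), at a ratio of means of 1.39. The log2 difference of 0.45 (SE 0.21, 95% interval -0.12 to 1.03) did not pass (limma, Benjamini-Hochberg adjusted p = 0.438; exact permutation p = 0.33). Without knockout replicate 1 it was 0.72 (adjusted p = 0.0144) and without knockout replicate 2 it was 0.19 (adjusted p = 0.0979), fits whose spread comes from the near-identical controls alone. In TPM it was 0.13 (adjusted p = 0.609), where the median of all genes tested moved from 0.01 to -0.27. With the controls averaged as 1 library it was 0.45, again not called.

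Of the 3 members 0 were called at 12 months, against 0.395% of genes tested, and 2 (Bdh1 and Acat1) had groups that did not overlap with knockout higher, against 27.3% of genes tested. With 2 libraries a side, separation of this kind is frequent. The members' median log2 difference was 0.45, beside 0.01 for all genes tested.

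The ratio of 2 transcripts within a library does not depend on how that library was scaled. Bdh1 amounted to 7.29%, 8.54% and 6.54% of Oxct1 in the 3-month controls and to 6.20%, 5.78% and 7.63% in the knockout libraries, which overlap (exact permutation p = 0.3). At 12 months it was 0.346% and 0.363% of Oxct1 in the controls and 4.18% and 17.1% in the knockout libraries, a log2 ratio difference of 4.57 (exact permutation p = 0.33, the smallest allowed). The 12-month controls held the lowest share of Bdh1 among the 4 groups, and knockout replicate 1 of 12 months lay below all 6 libraries of 3 months while replicate 2 lay above them. Ages were prepared differently, so these levels are set side by side with no test between ages.

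Acat1 was closer to Oxct1 in level. It was 59.8%, 57.7% and 58.8% of Oxct1 in the 3-month controls and 58.3%, 76.3% and 63.6% in the knockout libraries (exact permutation p = 0.3). At 12 months the controls gave 41.0% and 40.1% and the knockout libraries 33.1% and 70.0%, on both sides of the controls (exact permutation p = 1.0). Bdh1 relative to Acat1 was 0.842% and 0.905% in the 12-month controls and 12.6% and 24.4% in the knockout libraries.

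**Figure D2:**
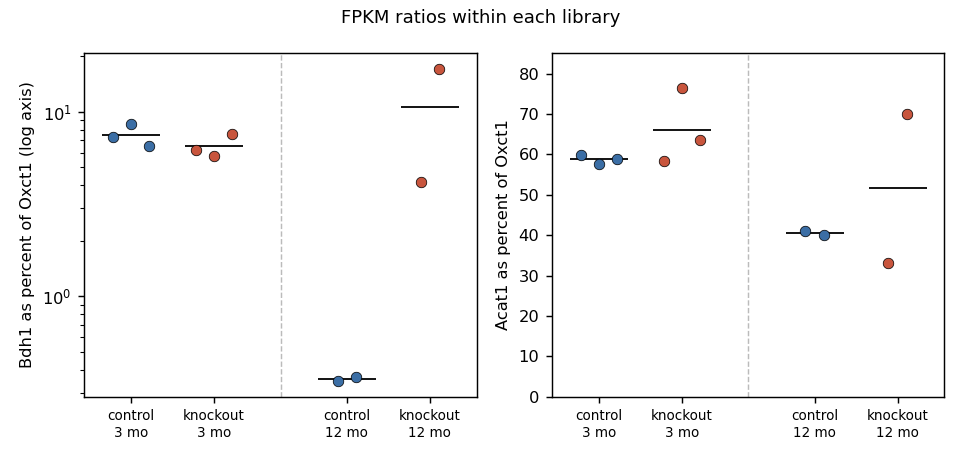
Bdh1 (left, log axis) and Acat1 (right, linear axis) as a percent of Oxct1 FPKM in each library, by genotype and age, with 1 point per library and a line at the group mean. Bdh1 was 5.78% to 8.54% of Oxct1 in all 6 libraries of 3 months, 0.346% and 0.363% in the 12-month controls, and 4.18% and 17.1% in the 12-month knockout libraries.

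The difference between the ages was tested as an interaction over all 10 libraries, that is, as knockout minus control at 12 months less the same at 3 months. For Bdh1 it was 4.62 on the log2 scale (SE 0.50, 95% interval 3.51 to 5.72; limma, Benjamini-Hochberg adjusted p = 0.00149), the third largest difference and the 19th lowest p of 11580 genes. Both 12-month knockout libraries were above their controls, while the 3-month groups overlapped. The Bdh1 interaction passed in all 20 alternatives tried, at 3.89 to 5.34. These include leaving out any 1 library and averaging the 12-month controls. Other pseudocounts, filters and scalings, no trend and a replicate block gave limma adjusted p values of 0.000195 to 0.0102. The ends, 3.89 and 5.34, each come from leaving out 1 knockout library of 12 months, which removes the spread between those libraries. The main fit assumes 1 spread for all 4 groups, although the 12-month knockout libraries varied more in Bdh1 than the others.

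For Oxct1 the difference between ages was 0.34 (SE 0.26, 95% interval -0.24 to 0.91; adjusted p = 0.585), and for Acat1 it was 0.42 (SE 0.24, 95% interval -0.11 to 0.95; adjusted p = 0.429), both from limma with Benjamini-Hochberg adjustment. So 1 of 3 members was called, where 1.38% of genes tested were called in either direction and 0.656% with a higher difference at 12 months. Members' median was 0.42, beside -0.08 for all genes tested.

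**Figure D3:**
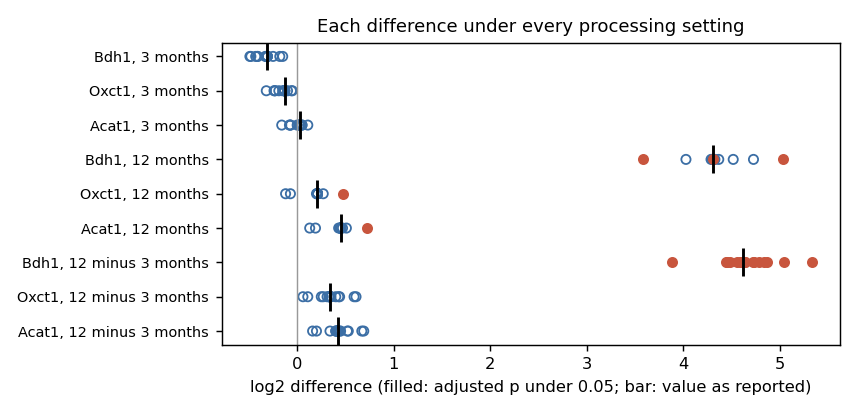
Log2 difference of each ketone body enzyme at 3 months, at 12 months and between the ages under the settings run, with filled points where the limma adjusted p was under 0.05 and a bar at the value as reported. Bdh1 between the ages lay at 3.89 to 5.34 and was filled throughout, whereas the 3 fillings at 12 months for Bdh1 come from the replicate block and from leaving out 1 knockout library.

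The antisense gene Gm15743 was read beside Bdh1. At 3 months it was at 0.124 to 0.329 FPKM in all libraries, with overlapping groups. At 12 months its controls held 0.0629 and 0.0199 FPKM and its knockout libraries 0.166 and 2.23, highest where Bdh1 was highest. At most 2.23 FPKM stood beside 112 FPKM for Bdh1 in that library, and how reads were divided between them was not tested. BC037032, beside Oxct1, was at 3.25 and 2.22 against 2.97 and 1.07 FPKM, far below Oxct1.

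Markers of other cells moved with the 12-month genotypes in part. Of 6 red blood cell markers tested, all were called lower in the 12-month knockout libraries (summed 10663 to 10798 FPKM in controls, 1959 to 2159.9 in knockout), and 5 of 6 were called higher at 3 months (819 to 1114 against 2083 to 3114). Adipocyte markers summed to 104 to 108 FPKM in the 12-month controls and 32.4 to 52.4 in knockout libraries, with 3 of 7 tested called lower. Summed atrial markers, of which 1 of 6 was called at 3 months and 0 at 12, were at 6112 to 6264 against 13478 to 15790.0 FPKM at 12 months. Nppa alone made the higher sum, at a mean of 3273 against 13184 FPKM, and 5 of the 6 had log2 differences below 0. Fibroblast markers summed to 1042 to 1054 FPKM in the 12-month controls and 736 to 834 in knockout libraries, and smooth muscle and pericyte markers to 419 to 421 against 312 to 344, with 0 of 6 called in each list at that age. Between the ages 1 of 6 was called in each, Col3a1 and Acta2, both with a lower difference at 12 months. Liver expresses Bdh1 strongly, and the 5 hepatocyte markers summed to 0.230 to 0.419 FPKM in the 12-month controls and 0.472 to 3.88 in knockout libraries. Of these Alb and Fgb were at 0 in all 12-month libraries, and Ttr, the only one tested, reached 3.79 FPKM in knockout replicate 2, the library with the highest Bdh1, and was not called. The 10 mitochondrial reference genes summed to 2045 to 2057 FPKM in the 12-month controls and 2154 to 2231 in knockout libraries, with 0 of 10 called. In RNA from dissected hearts fewer cells of a type and less RNA per cell cannot be told apart. The part of these markers in the Bdh1 values was not tested.

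Oxct2a, a testis form of the OXCT1 enzyme, was listed at 0 in every library, and Oxct2b at 0 in all 6 of 3 months. Transport was led by Slc16a1, which encodes the monocarboxylate transporter MCT1 that carries ketone bodies and lactate. It was at 39.5 ± 3.09 against 37.4 ± 1.06 FPKM at 3 months and at 61.9 ± 0.446 against 54.7 ± 10.2 at 12 months, with log2 differences of -0.07 and -0.19. Bsg, its chaperone basigin, was at 801 ± 71.2 against 882 ± 36.7 FPKM and at 710.3 ± 19.3 against 899 ± 133, with a log2 difference at 12 months of 0.33 (limma, Benjamini-Hochberg adjusted p = 0.432). Ffar3, a receptor for short fatty acids, was listed at 0 everywhere. Of 6 transport and receptor genes tested at each age, 0 were called.

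The other thiolases can be read beside Acat1. Acaa2, the mitochondrial thiolase of fatty acid oxidation, was at 470 and 453 FPKM in 12-month controls and at 479 and 729 in knockout libraries, so that knockout replicate 2 was highest for Acaa2 as for Acat1. Hadhb, the thiolase of the trifunctional protein, had a log2 difference of 0.42 (limma, Benjamini-Hochberg adjusted p = 0.545) and Scp2 one of 0.44 (adjusted p = 0.269). Acat2, the cytosolic thiolase, was at 1.35 ± 0.120 against 2.03 ± 0.355 FPKM at 3 months (log2 difference 0.36, adjusted p = 0.213). None of the 5 thiolases tested was called (0 at each age), with a median log2 difference of 0.16 at 3 months and 0.36 at 12 months beside 0.09 and 0.01 for all genes.

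Enzymes that make or use succinyl-CoA and acetyl-CoA were abundant. Cs, citrate synthase, was at 402 ± 79.3 against 305 ± 53.7 FPKM at 3 months (log2 difference -0.39; limma, Benjamini-Hochberg adjusted p = 0.316) and at 653 ± 2.13 against 566 ± 119 at 12 months. Ogdh, a subunit of the complex that makes succinyl-CoA, was at 377 ± 81.2 against 295 ± 44.3 FPKM (log2 difference -0.34, adjusted p = 0.368) and at 523 ± 3.42 against 610.0 ± 104. Of 7 such genes 0 were called at each age, with 6 of 7 below 0 at 3 months and 3 of 7 at 12 months. Over all genes tested, 65.0% of log2 differences were above 0 at 3 months and 51.5% at 12 months. The 3 isoleucine steps before Acat1 (Acadsb, Echs1 and Hsd17b10) gave 0 calls and medians of 0.15 and 0.09.

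Regulators of fuel genes were read last. Ppara, a fatty acid receptor that drives ketone synthesis genes in liver, was at 2.11 ± 0.505 against 1.41 ± 0.342 FPKM at 3 months (log2 difference -0.36; limma, Benjamini-Hochberg adjusted p = 0.301). At 12 months it was at 13.4 and 14.2 FPKM in controls and at 16.7 and 6.35 in knockout libraries, on both sides of the controls. Esrra, with the lowest p of the regulators at 12 months, was at 79.7 ± 0.619 against 69.6 ± 1.09 FPKM. Its log2 difference was -0.19 (limma, Benjamini-Hochberg adjusted p = 0.474). Of 7 regulators tested 0 were called at each age, with 6 of 7 below 0 at both ages.

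**Figure D4:**
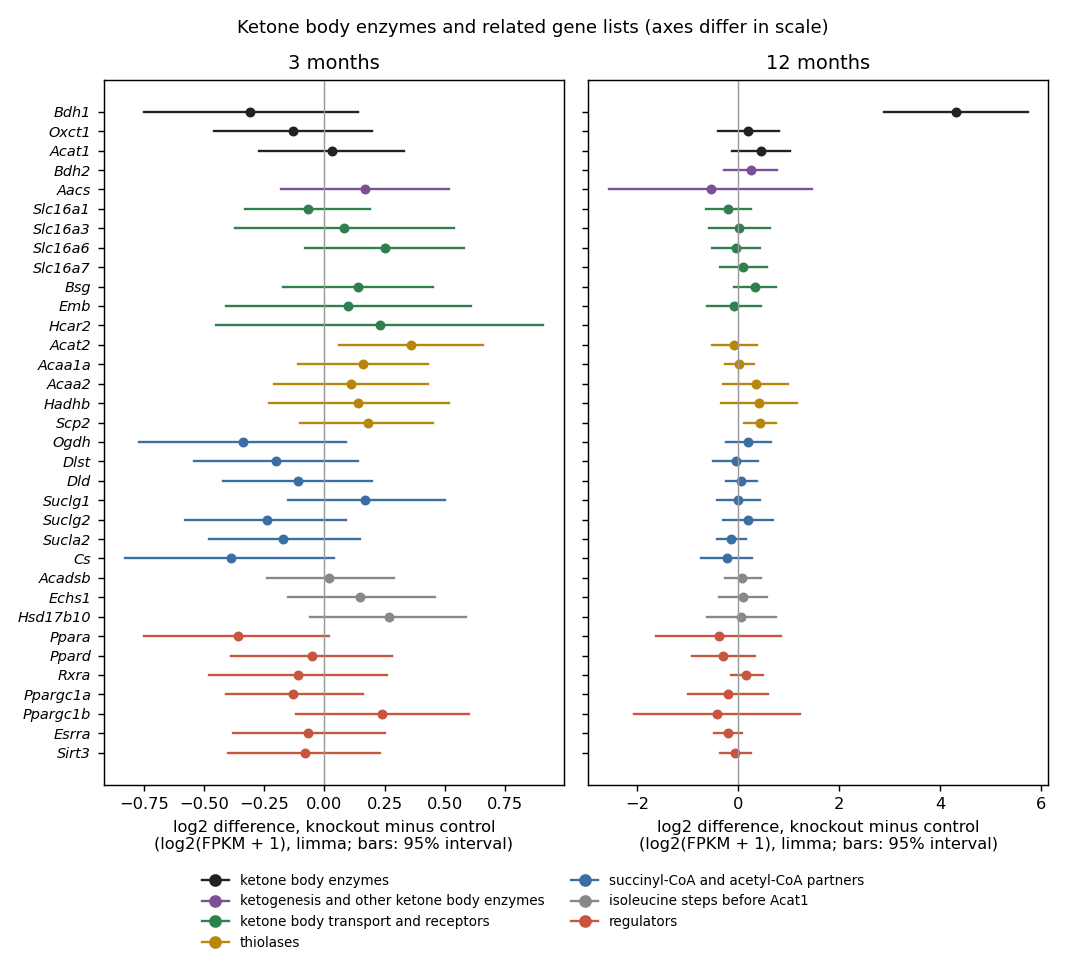
Log2 difference, knockout minus control, with its 95% interval from limma for the ketone body enzymes and related genes at 3 months (left) and 12 months (right), coloured by list, on axes of different scale. At 12 months the interval of Bdh1 (2.89 to 5.73) lies clear of 0 and that of Acat1 (-0.12 to 1.03) spans it.

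Genes with the most similar pattern were found by Pearson's r over the 10 libraries on log2(FPKM + 1) with the mean of each age subtracted, among 6219 protein-coding genes averaging at least 5 FPKM at both ages. Libraries of 1 age share their preparation, and a gene that differs widely between the 12-month genotypes, as Bdh1 does, has its r set largely by those 4 libraries. For Bdh1 they were Picalm (r = 0.99), which encodes a clathrin assembly protein, Serinc3 (0.979) and Trim54 (0.978), a muscle ring-finger protein. Trim54 averaged 47.3 FPKM in the 12-month controls and 182 FPKM in the knockout libraries, against 115 and 128 at 3 months. At 12 months Picalm averaged 37.3 against 52.7 FPKM and Serinc3 126 against 181. A high r thus does not mean a change as large as that of Bdh1. For Oxct1 they were P2ry1 (0.94), a purine receptor, Col4a3bp (0.939) and Top3b (0.924), and for Acat1 they were Lamp1 (0.991), a lysosomal membrane protein, Gnl3 (0.984) and Mrpl50 (0.982).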

How the data were processed

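Gene-level FPKM values were made and deposited by the authors, 1 table per age with 1 column per library. Per the submitters' processing notes the builds named are mm10 and GRCm38 (2 names of 1 build), and Cufflinks 2.1.1, STAR 2.5.1b, TopHat2 2.1.0 and FastQC are listed, with roles not given in the sources here. The 12-month table's name says that outliers were left out. Rows repeating an identifier (69 at 3 months) were summed, and identifiers were matched to GENCODE M21 on GRCm38. Summed FPKM was 516272 to 718787 per library at 3 months and 890181 to 1171104 at 12 months.

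Genes averaging at least 1 FPKM at an age were tested on log2(FPKM + 1), which understates changes of low genes, with limma 3.58.1 (R 4.3.3), trended empirical Bayes moderation and Benjamini-Hochberg adjustment over all genes tested. An adjusted p under 0.05 was called. Residual degrees of freedom were 4 at 3 months and 2 at 12 months. Genotypes were compared within each table, and the ages by an interaction contrast over 4 group means. Single genes also had two-sided exact permutation tests. Low values fell within 0.05 of whole reads for 87.5% to 88.1% of genes at 12 months, at depths of 21.9 to 31.2 M reads, and for 23.3% to 34.7% at 3 months, where no depth was taken. The depths were found by a search, and counting error beyond them is unknown.

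Members and gene lists were chosen with earlier results of these data known, and the sex-linked list was added after the tables were read. Named genes were the members, Prdm16, and genes of the pathway lists that were called or among the 3 of lowest p per list and age, plus the 3 genes of highest r. Ppara at 12 months, Slc16a1 at 3 months, Xist, Ddx3y, Nppa, Myl7, Ryr2, Alb, Fgb, Ttr, Col3a1, Acta2, Oxct2a, Oxct2b, Ffar3, Gm15743 and BC037032 lie outside that rule. These were named after their values were seen. Some genes of the wider pathway are not reported here, and the list they belonged to is given without counts. Endothelial, fibroblast, smooth muscle and pericyte, and leukocyte markers were also read. Of these 0 were called at 12 months, and at 3 months 0 of 6, 0 of 6, 0 of 6 and 2 of 6 tested (leukocyte, both higher). Of the airway and lung markers 2 of 2 were called lower at 3 months and none could be tested at 12 months. Alternatives were other pseudocounts, filters and scalings, no trend, a replicate block and leaving out libraries. The scripts were tested on simulated data.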

Additional observations from a re-analysis of the deposited data

Results flagged for a closer look

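The knockout minus control difference of Bdh1 differed between the ages by 4.62 on the log2(FPKM + 1) scale (limma interaction, Benjamini-Hochberg adjusted p = 0.00149), from -0.31 at 3 months to 4.31 at 12 months, with both 12-month knockout libraries above both controls. Library preparation goes with age, and sex as read from sex-linked genes goes with genotype at 12 months only. Neither can be told apart from this difference.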

How the results depend on the processing

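The difference of Bdh1 between the ages passed in all 20 alternatives (3.89 to 5.34 overall and when single libraries were left out). Both ends of that range come from leaving out 1 knockout library of 12 months, which removes the spread between those libraries. Oxct1 (0.06 to 0.61) and Acat1 (0.16 to 0.69) passed in none of their alternatives. At 3 months Bdh1 (-0.48 to -0.15 with a library left out) and Oxct1 (-0.23 to -0.05) kept their sign and were not called in 15 alternatives. Acat1 at 3 months turned to -0.07 in TPM (transcripts scaled to a fixed total), -0.08 with median-of-ratios scaling and -0.16 with cardiomyocyte-marker centring. The median of all genes tested also moved in these scalings, from 0.09 to 0.0, 0.0 and -0.1. With a library left out Acat1 lay at -0.07 to 0.11, negative without control replicate 3. At 12 months Bdh1 ran from 3.58 (without knockout replicate 2, adjusted p = 0.0136) to 5.04 (without knockout replicate 1, adjusted p = 0.00879). Oxct1 ran from -0.07 to 0.48 with a library left out and was -0.12 in TPM. Acat1 ran from 0.19 to 0.72 with a library left out and was 0.13 in TPM. The 12-month median of all genes tested was -0.27 in TPM and 0.01 as reported, so TPM lowered most genes. Leaving out 1 knockout library of 12 months leaves the near-identical controls as the only measure of spread. The cause of the other changes was not tested.

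Counts of called genes, 91 at 3 months, were 10 without the filter, 59 with median-of-ratios scaling and 22 to 81 with a library left out (22 without control replicate 2, 29 without control replicate 3, 59 without knockout replicate 2). The 52 at 12 months became 17 without the filter, 0 with the controls averaged as 1 library (limma; 414 at an unadjusted p under 0.05; chosen after seeing the data), and 0 to 4409 with a library left out, 0 without either control, 4409 without knockout replicate 1 and 654 without knockout replicate 2. The 160 between the ages became 40 with the controls averaged and 40 to 787 with a library left out.

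Replicate numbers gave no sign of pairing, as deviations from the group mean correlated at -0.12, -0.46 and -0.14 between same-numbered libraries of 3 months. At 12 months the value was -0.01, and with 2 libraries per group both pairs must give the same value. The 3-month values are also tied together by their group means, so this check is rough. With a replicate block the calls numbered 29 at 3 months and 55 between the ages, and Bdh1 at 12 months was 4.31 with an adjusted p of 0.049. No 3-month library correlated best with its own number.

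Among the 12-month libraries, Bdh1 rests on the fewest reads in the controls, at about 42 to 226. Depth at 3 months is unknown.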
